A study of Oryza sativa with 18 samples.

Results

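Nitrate taken up by a plant is reduced to ammonium and built into amino acids, and the genes for that route were followed here in the leaves of drought-stressed rice. The set comprised 10 genes of 39049 in the table, picked by gene identifier: 3 nitrate reductases, 1 nitrite reductase, 3 glutamine synthetases (1 plastidic, 2 cytosolic), 2 glutamate synthases and 1 asparagine synthetase. The rule itself uses no expression value, but the genes were chosen with earlier results of these data known. The enzyme classes rest on the file's own annotation, which is that of the best Arabidopsis match, and no sequence or coordinate was used.

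Nitrate reductase in the cytosol turns nitrate into nitrite, and nitrite reductase in the plastid turns nitrite into ammonium. Glutamine synthetase fixes ammonium onto glutamate, and glutamate synthase passes the amide group on to make glutamate again. In green leaves the plastidic glutamine synthetase and the ferredoxin-dependent glutamate synthase also recapture the ammonium set free in photorespiration, whereas cytosolic glutamine synthetase and asparagine synthetase are known for the transport and remobilization of nitrogen.

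Leaves came from H471, a drought-tolerant introgression line with chromosome segments of the tolerant donor P28 in the background of the drought-sensitive recurrent parent HHZ, and from P28 and HHZ themselves. H471 is a single line. The 3 genotypes were grown in greenhouse pots to the tillering stage, and the top leaves were taken under well-watered control conditions, after 1 day of drought (soil water near 15%) and after 3 days (near 10%). Per the paper, 3 top leaves were harvested for each sample, and the hour of harvest is not given in the sources used here.

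Each genotype and condition had 2 libraries, but the FPKM (fragment counts scaled for transcript length and library size) that the authors deposited are 1 pooled value for both, in 9 columns in all. A single contrast between columns therefore has no SD and no p-value, and every FPKM below is the authors' pooled value. Differences are on the log2(FPKM + 1) scale, which understates the change of weakly expressed genes. An additive limma model of genotype plus condition was fitted to the 9 columns for the 20568 genes that reached an FPKM of 1 in some column. It treats the 3 genotypes as replicates when drought is compared and the 3 conditions as replicates when genotypes are compared, which leaves 4 residual degrees of freedom. Its Benjamini-Hochberg adjusted p-values therefore say nothing of the variation from plant to plant. A gene is said to have risen or fallen where it passed this test.

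Column sums of FPKM were between 816186 and 984323. As a check of the leaf label, 2 genes for the small subunit of rubisco had an FPKM of 2815 to 5945 after 1 day. They had 183 to 468 after 3 days, against 2348 to 3750 in the controls. The 2 genes for light-harvesting proteins differed at 3 days. LOC_Os01g41710 had 5098 to 5573 after 1 day and 535 to 991 after 3 days, against 810 to 1367 in the controls. LOC_Os09g17740 had 5236 to 6691 after 1 day and 1567 to 2520 after 3 days, against 1011 to 1434 in the controls. As root markers, the nitrate transporters LOC_Os02g02170 and LOC_Os02g02190 were listed at 0 in all 9 columns. Other genes of that class, named after their values were seen, were detected: LOC_Os01g50820 (matching NRT2.5) had 1.48 to 4.04 FPKM in the controls, and LOC_Os01g36720 (matching NRT2.7) had 16.0 in P28 after 1 day. The 2 dehydrins checked, proteins of water-stressed tissue, were each at 386 to 1211 FPKM after 1 day and 64.5 to 558 after 3 days, against 0 to 0.835 in the controls. The clock genes LHY and TOC1 moved with the drought columns. LHY (LOC_Os08g06110) was at 353 to 426 FPKM after 1 day and 10.6 to 17.3 after 3 days, against 1.49 to 2.08 in the controls. TOC1 (LOC_Os02g40510) was at 3.59 to 5.86 FPKM after 1 day and 94.8 to 104 after 3 days, against 77.0 to 86.6 in the controls. Both clock genes thus also lay outside the control range at 3 days, by less than at 1 day. Hour of harvest and drought cannot be told apart at either time, and this touches every drought value below. Nor can fewer cells of a type be told apart from less RNA per cell in whole leaves.

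After 1 day of drought several genes of the route were high in all 3 genotypes. Nitrite reductase LOC_Os01g25484, plastidic and 1 cytosolic glutamine synthetase and the ferredoxin-dependent glutamate synthase rose. Nitrate reductase LOC_Os08g36480 was above its controls. Of the other nitrate reductases, LOC_Os08g36500 was below its controls, and LOC_Os02g53130 was below them in P28 and HHZ but not in H471. The requirement of 1 FPKM in some column fixed the direction of the calls for LOC_Os08g36480 and LOC_Os08g36500, as given below. After 3 days the plastidic glutamine synthetase and the ferredoxin-dependent glutamate synthase were below their controls. At that time the asparagine synthetase and the NADH-dependent glutamate synthase were above theirs. The nitrite reductase was still high at 3 days, at a lower level than at 1 day. The plot of expression by condition shows these courses for each member.

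**Figure D1:**
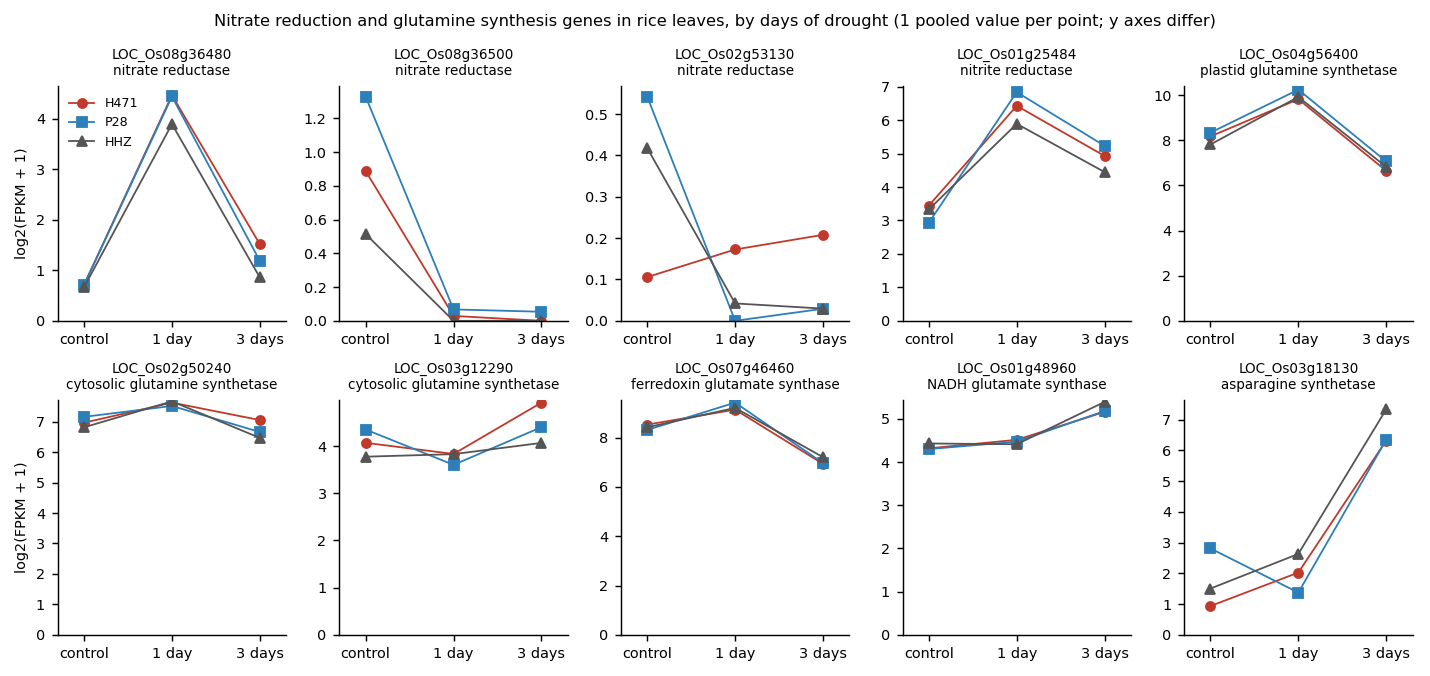
Expression of the 10 members, log2(FPKM + 1) on y axes that differ between panels, under control conditions and after 1 and 3 days of drought; each point is 1 pooled column and each line 1 genotype. LOC_Os08g36480 stood at 13.9 to 21.1 FPKM in the 1-day columns, against 0.587 to 0.644 in the controls, and LOC_Os03g18130 at 78.8 to 160.0 FPKM in the 3-day columns, against 0.911 to 6.01 in the controls.

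The nitrate reductases catalyse the first and usually limiting reduction. LOC_Os08g36480, matching NIA1, had FPKM of 0.644 in H471, 0.634 in P28 and 0.587 in HHZ under control conditions. After 1 day its FPKM was 21.1 in H471, 20.8 in P28 and 13.9 in HHZ, and after 3 days it was 1.86 in H471, 1.28 in P28 and 0.814 in HHZ. All 3 drought columns of each time lay above all 3 control columns, and the 1-day columns lay furthest above. As a ratio of FPKM, 1 day over control came to 32.8 in H471, 32.7 in P28 and 23.7 in HHZ. The gene was under 1 FPKM in every control and entered the fit through drought columns alone, so a call towards higher values under drought was built into its selection. The fitted difference was 3.57 ± 0.15 (SE) after 1 day (limma adjusted p = 3.46e-06) and 0.49 ± 0.15 after 3 days (limma adjusted p = 0.0281). The 3-day call was lost without H471 or without P28: it was 0.34 without H471 (limma adjusted p = 0.194) and 0.50 without P28 (limma adjusted p = 0.122), and 0.49 when the control and 3-day columns alone were fitted (limma adjusted p = 0.07). Between the drought times the gene fell by 3.08 on the log2 scale at 3 days relative to 1 day (limma adjusted p = 8.86e-06).

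LOC_Os08g36500, a neighbouring nitrate reductase locus, had FPKM of 0.850 in H471, 1.51 in P28 and 0.428 in HHZ under control conditions. After 1 day it was at 0.0203 in H471 and 0.0480 in P28 and listed at 0 in HHZ, and after 3 days it was at 0.0379 in P28 and listed at 0 in H471 and HHZ. No drought column reached the lowest control column. The gene entered the fit through its P28 control column alone, so a call towards lower values under drought was built into its selection: the difference was -0.88 ± 0.20 (SE) after 1 day (limma adjusted p = 0.0072) and -0.89 ± 0.20 after 3 days (limma adjusted p = 0.00714, and 0.0514 without H471). How the pipeline split reads between these neighbouring loci of the same class is uncertain. Their course was opposite, and LOC_Os08g36480 was by far the larger of them under drought.

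LOC_Os02g53130, the nitrate reductase on chromosome 2, did not reach 1 FPKM in any column and was not tested. Its FPKM was 0.0761 in H471, 0.456 in P28 and 0.336 in HHZ under control conditions. After 1 day it had 0.127 in H471, was listed at 0 in P28 and had 0.0296 in HHZ, with 0.155 in H471, 0.0204 in P28 and 0.0207 in HHZ at 3 days. P28 and HHZ were lower under drought than in their controls, while H471 was lowest in its control. The read depth behind such low values is unknown. LOC_Os08g36480 made up 99.3% to 99.8% of the summed FPKM of the 3 member nitrate reductases after 1 day. Its share was 92.3% to 97.5% after 3 days, against 24.4% to 43.4% in the controls. A further gene annotated as nitrate reductase, LOC_Os10g17780 of the wider pathway, is not in that sum. It had 0.411 to 0.581 FPKM after 1 day and 0.103 to 0.550 after 3 days, against 0.617 to 1.67 in the controls. With it counted in, the shares of LOC_Os08g36480 would be lower, and the near-total share after 3 days would not hold in P28 and HHZ. LOC_Os10g17780 then had 0.103 FPKM in H471, 0.520 in P28 and 0.550 in HHZ. At that time LOC_Os08g36480 had 1.86 in H471, 1.28 in P28 and 0.814 in HHZ.

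Nitrite reductase removes the toxic nitrite that the step before it makes. LOC_Os01g25484, matching NIR1, had FPKM of 9.91 in H471, 6.65 in P28 and 9.06 in HHZ under control conditions. After 1 day its FPKM was 85.1 in H471, 113 in P28 and 58.3 in HHZ, and after 3 days it was 29.5 in H471, 36.6 in P28 and 20.8 in HHZ. The 3 conditions did not overlap: 1 day was highest in each genotype and control lowest. P28 was the lowest genotype in the control and the highest at both drought times. The ratio of 1 day over control was 8.59 in H471, 17.0 in P28 and 6.43 in HHZ, and that of 3 days over control was 2.97 in H471, 5.50 in P28 and 2.29 in HHZ. The gene rose by 3.15 ± 0.24 (SE) on the log2 scale after 1 day (limma adjusted p = 4.67e-05) and by 1.63 ± 0.24 after 3 days (limma adjusted p = 0.00117), and it was lower at 3 days than at 1 day by -1.52 ± 0.24 (limma adjusted p = 0.00193). Whether the larger ratio of P28 differs from that of the other genotypes was not tested.

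Plastidic glutamine synthetase is the main leaf isoform and serves both nitrate assimilation and photorespiration. LOC_Os04g56400, matching GLN2, had FPKM of 288 in H471, 324 in P28 and 225 in HHZ under control conditions, which made it one of the more abundant members. After 1 day its FPKM was 907 in H471, 1216 in P28 and 972 in HHZ, and after 3 days it was 99.4 in H471, 133 in P28 and 112 in HHZ. The 3 conditions did not overlap, with 1 day above control and 3 days below it. The ratio of 1 day over control was 3.15 in H471, 3.76 in P28 and 4.33 in HHZ, and that of 3 days over control was 0.345 in H471, 0.411 in P28 and 0.4999 in HHZ. The gene rose by 1.89 ± 0.11 (SE) after 1 day (limma adjusted p = 1.5e-05) and changed by -1.27 ± 0.11 after 3 days (limma adjusted p = 0.000118). Relative to 1 day it fell by 3.15 on the log2 scale at 3 days (limma adjusted p = 2.72e-06). The rubisco small subunit was also lower in the 3-day columns. Of the light-harvesting genes, LOC_Os09g17740 was then above its controls and LOC_Os01g41710 overlapped them. LHY and TOC1 stood apart in the drought columns, as given above. The part of these genes in this course was not tested.

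The cytosolic glutamine synthetases had smaller fitted differences from control. LOC_Os02g50240, matching GLN1;4, had FPKM of 124 in H471, 142 in P28 and 112 in HHZ under control conditions. After 1 day it had 197 in H471, 182 in P28 and 203 in HHZ, with 132 in H471, 100.3 in P28 and 87.6 in HHZ at 3 days. The 1-day columns lay above every other column, while the 3-day columns overlapped the controls, with H471 above its own control and P28 and HHZ below theirs. The gene rose by 0.62 ± 0.14 (SE) after 1 day (limma adjusted p = 0.00765, and 0.51 with an adjusted p of 0.0704 without HHZ). After 3 days it differed from control by -0.25 ± 0.14, which did not pass the test (limma adjusted p = 0.165), and it was lower at 3 days than at 1 day by -0.88 ± 0.14 (limma adjusted p = 0.00205).

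LOC_Os03g12290, matching GSR2, was the least abundant of the 3 glutamine synthetase members. Its FPKM was 15.8 in H471, 19.4 in P28 and 12.7 in HHZ under control conditions. After 1 day it had 13.3 in H471, 11.2 in P28 and 13.2 in HHZ, with 29.3 in H471, 20.1 in P28 and 15.8 in HHZ at 3 days. Both drought times overlapped the controls, and the 3-day columns lay above the 1-day columns, with H471 highest. Against control the difference was -0.31 ± 0.19 (SE) after 1 day (limma adjusted p = 0.21) and 0.40 ± 0.19 after 3 days (limma adjusted p = 0.121), so neither passed the test. The rise at 3 days over 1 day was 0.71 ± 0.19 (limma adjusted p = 0.0207). That call was lost without H471, where it was 0.52 (limma adjusted p = 0.146), and without P28, where it was 0.66 (limma adjusted p = 0.1).

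Since FPKM are per length, levels of different genes can be set side by side within a column. The plastidic gene held 81.2% to 86.3% of the summed glutamine synthetase FPKM after 1 day and 38.1% to 52.5% after 3 days, against 64.3% to 67.3% in the controls. LOC_Os02g50240 held 39.6% to 50.6% after 3 days, against 29.0% to 32.0% in the controls, and LOC_Os03g12290 held 7.31% to 11.2% after 3 days, against 3.64% to 4.00% in the controls. In H471 the plastidic share after 3 days, 38.1%, was the lowest of the 9 columns. The summed FPKM of the 2 cytosolic genes was 194 to 216 after 1 day and 103 to 161 after 3 days, against 124 to 162 in the controls. The share of the cytosolic genes was thus higher after 3 days while their sum overlapped that of the controls.

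**Figure D2:**
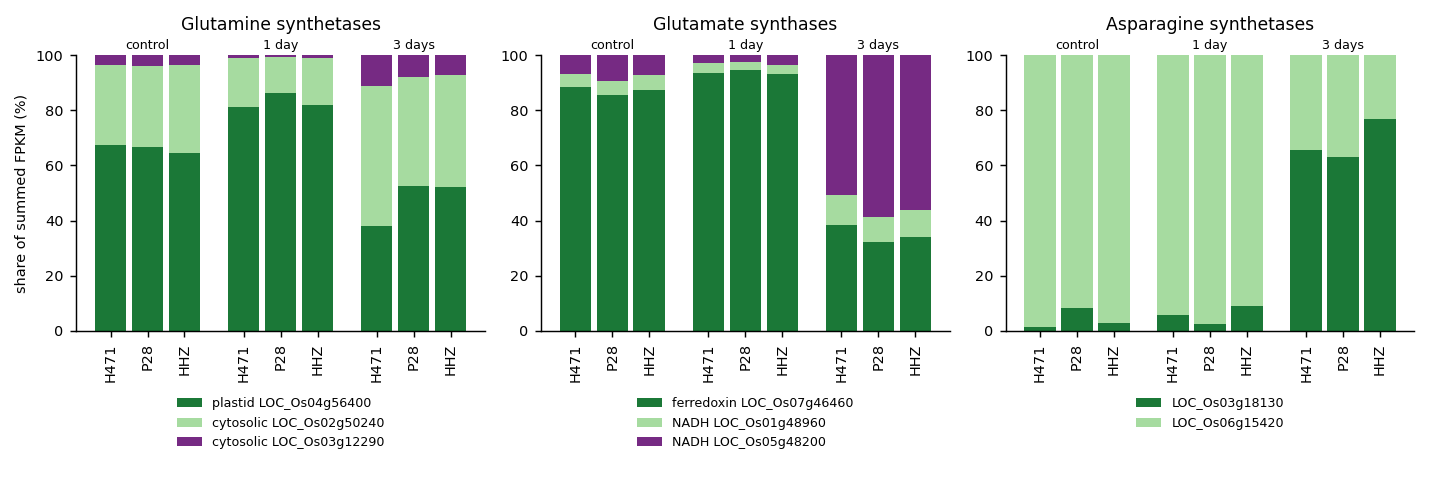
Share (percent) of each gene in the summed FPKM of the glutamine synthetases, glutamate synthases and asparagine synthetases, with LOC_Os05g48200 and LOC_Os06g15420 of the wider pathway included; each bar is 1 pooled column. The plastidic glutamine synthetase held 81.2% to 86.3% after 1 day and 38.1% to 52.5% after 3 days, against 64.3% to 67.3% in the controls.

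Glutamate synthase takes its electrons from reduced ferredoxin in the plastids of green tissue, or from NADH in an isoform better known from non-green tissue. LOC_Os07g46460, the ferredoxin-dependent enzyme matching GLU1, had FPKM of 369 in H471, 318 in P28 and 342 in HHZ under control conditions. After 1 day its FPKM was 564 in H471, 687 in P28 and 592 in HHZ, and after 3 days it was 122 in H471, 124 in P28 and 147 in HHZ. As for the plastidic glutamine synthetase, the conditions did not overlap, with 1 day above control and 3 days below it. The gene rose by 0.84 ± 0.12 (SE) after 1 day (limma adjusted p = 0.000935), changed by -1.38 ± 0.12 after 3 days (limma adjusted p = 0.000105), and fell by 2.22 on the log2 scale at 3 days relative to 1 day (limma adjusted p = 1.37e-05).

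LOC_Os01g48960, the NADH-dependent enzyme matching GLT1, had FPKM of 18.9 in H471, 18.7 in P28 and 20.5 in HHZ under control conditions. The 1-day columns had 21.9 in H471, 21.2 in P28 and 20.3 in HHZ, with 34.8 in H471, 35.3 in P28 and 41.0 in HHZ at 3 days. The 3-day columns lay above all others, and the 1-day columns overlapped the controls. The difference after 1 day, 0.12 ± 0.08 (SE), did not pass the test (limma adjusted p = 0.262), and after 3 days the gene rose by 0.90 ± 0.08 (limma adjusted p = 0.000135), as it did at 3 days over 1 day, by 0.78 ± 0.08 (limma adjusted p = 0.000287).

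The 2 glutamate synthases thus stood in a different proportion at each time. The ferredoxin-dependent gene held 96.3% to 97.0% of their summed FPKM after 1 day and 77.8% to 78.2% after 3 days, against 94.3% to 95.1% in the controls. A further NADH-dependent gene, LOC_Os05g48200, belongs to the pathway list described below. It had FPKM of 28.7 in H471, 35.3 in P28 and 28.2 in HHZ under control conditions. The 1-day columns had 18.2 in H471, 18.5 in P28 and 23.3 in HHZ, with 161 in H471, 228 in P28 and 243 in HHZ at 3 days. It fell by 0.60 on the log2 scale after 1 day (limma adjusted p = 0.00909) and rose by 2.72 ± 0.14 (SE) after 3 days (limma adjusted p = 1.33e-05). With it counted in, the NADH-dependent genes held 61.6% to 67.9% of the glutamate synthase FPKM after 3 days, against 11.4% to 14.5% in the controls. The order of the 2 forms in summed FPKM was thus turned round in all 3 genotypes, and this rests on LOC_Os05g48200. Enzyme activity and use of either electron donor were not measured.

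Asparagine synthetase moves the amide group of glutamine to asparagine, a nitrogen-rich transport amino acid. LOC_Os03g18130, matching ASN2, had FPKM of 0.911 in H471, 6.01 in P28 and 1.84 in HHZ under control conditions. After 1 day its FPKM was 3.06 in H471, 1.59 in P28 and 5.19 in HHZ, and after 3 days it was 78.8 in H471, 80.2 in P28 and 160.0 in HHZ. The 3-day columns lay far above all others, with HHZ highest, whereas the 1-day columns overlapped the controls. H471 and HHZ were above their controls after 1 day, by 1.09 and 1.13 on the log2 scale, and P28 differed from its control by -1.44. The fitted difference after 1 day was 0.26 ± 0.50 (SE) and did not pass the test (limma adjusted p = 0.678). Without P28 it was 1.11 (limma adjusted p = 0.0101), without H471 it was -0.16 (limma adjusted p = 0.874) and without HHZ it was -0.17 (limma adjusted p = 0.849). After 3 days the gene rose by 4.92 ± 0.50 (limma adjusted p = 0.000203), the largest difference among the members, and the ratio of 3 days over control was 86.4 in H471, 13.4 in P28 and 87.2 in HHZ. The smaller ratio in P28 went with its higher control value. The rise at 3 days over 1 day was 4.66 ± 0.50 (limma adjusted p = 0.000296).

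A second asparagine synthetase, LOC_Os06g15420 (matching ASN3), is a pathway gene outside the 10. Its FPKM was 41.1 to 48.0 after 3 days, against 62.9 to 65.6 in the controls, and it fell by 0.50 on the log2 scale (limma adjusted p = 0.00326). LOC_Os03g18130 therefore held 63.0% to 76.9% of the summed asparagine synthetase FPKM after 3 days, against 1.40% to 8.39% in the controls. After 1 day its share was 2.33% to 8.98%, which overlapped the controls.

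**Figure D3:**
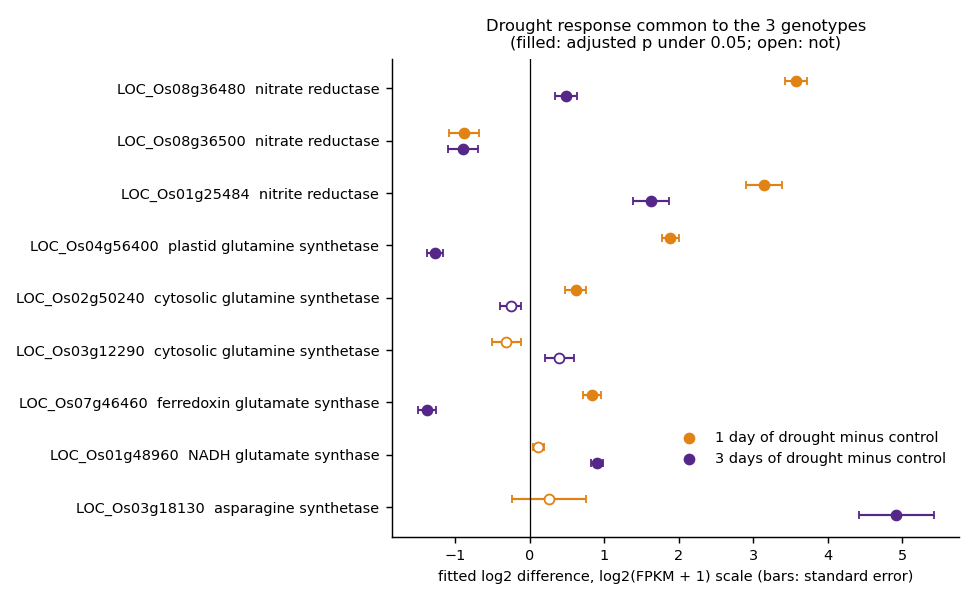
Fitted log2(FPKM + 1) differences (limma) of the 9 members tested after 1 day and after 3 days of drought against control; bars are the SE, and filled points passed the test at an adjusted p of 0.05. LOC_Os03g18130 had the largest fitted difference after 3 days, 4.92 ± 0.50, and LOC_Os08g36480 the largest after 1 day, 3.57 ± 0.15. LOC_Os08g36480 passed the expression filter through drought columns alone and LOC_Os08g36500 through its P28 control column alone. The direction of their calls was thus built in.

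Of the 9 members tested, 5 were called higher after 1 day of drought and 1 lower, where 27.4% of all genes tested were called higher and 30.8% lower. After 3 days 4 members were called higher and 3 lower, against 27.0% higher and 30.1% lower over all genes. At 3 days relative to 1 day, 3 were higher and 5 lower, against 25.3% and 24.4% of all genes. LOC_Os08g36500 is the lower call after 1 day and 1 of the 3 after 3 days, and LOC_Os08g36480 is 1 of the higher calls at both times. Their directions were built in by the expression filter, as given above, so these counts are a description. The remaining members tested passed the filter in control as well as drought columns. The 1-day and 3-day comparisons share their control columns. No test was made of the members as a set against all genes.

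By size alone, a log2 difference of at least 1 in either direction was passed after 1 day by 4 of 9 members in H471 (26.6% of all genes), 6 in P28 (27.1%) and 4 in HHZ (25.5%). After 3 days it was passed by 4 in H471 (24.5%), 5 in P28 (22.6%) and 3 in HHZ (23.5%). The P28 counts include LOC_Os08g36500 at both times, a gene that entered through its P28 control column alone. The 1-day counts include LOC_Os08g36480, which entered through drought columns alone. The directions of both were built in by the expression filter, so these counts too are a description. LOC_Os08g36480, LOC_Os01g25484 and LOC_Os04g56400 passed it after 1 day in every genotype, with 3.75 in H471, 3.74 in P28 and 3.23 in HHZ for LOC_Os08g36480. LOC_Os01g25484 had 2.98 in H471, 3.90 in P28 and 2.56 in HHZ, and LOC_Os04g56400 had 1.65 in H471, 1.91 in P28 and 2.11 in HHZ. LOC_Os03g18130 passed it too, upwards in H471 and HHZ and downwards in P28. In every genotype LOC_Os01g25484, LOC_Os07g46460 and LOC_Os03g18130 passed it after 3 days.

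**Figure D4:**
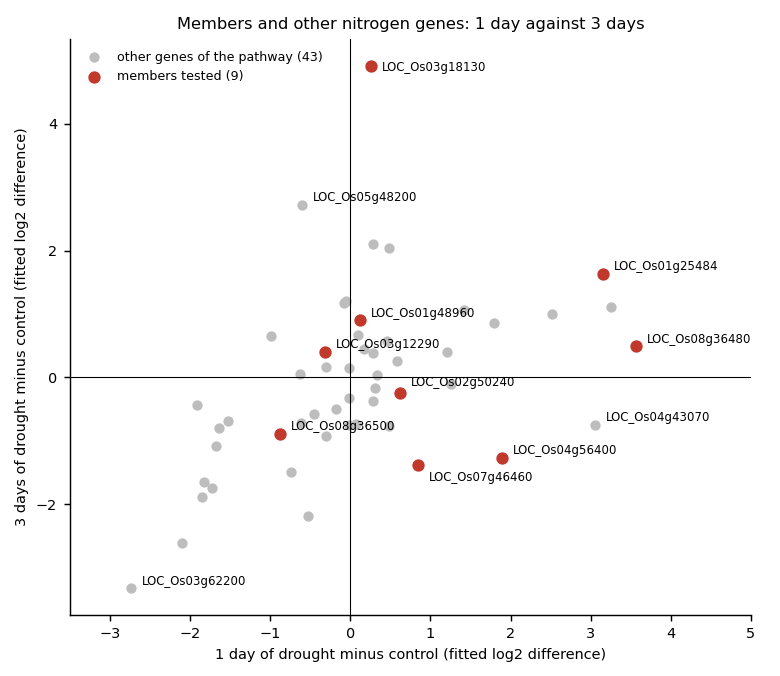
Fitted log2(FPKM + 1) difference from control after 1 day (x axis) and after 3 days (y axis) for the 9 members tested and 43 other genes of the pathway; both axes use the same control columns. LOC_Os04g56400 and LOC_Os07g46460 lie to the right of 0 and below it, and LOC_Os01g25484 lies to the right and above.

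No member was called between the genotypes over the 3 conditions. For H471 against HHZ, 0 of 9 members passed limma's test, where 0.224% of all genes did, and 1 member reached an unadjusted p under 0.05: LOC_Os08g36480, 0.43 ± 0.15 (SE) higher in H471 in 3 of 3 conditions (limma adjusted p = 0.638). For P28 against HHZ it was 0 of 9, where 6.64% of all genes were called, and the 1 member under the unadjusted 0.05 was LOC_Os04g56400, with a difference of 0.36 (limma adjusted p = 0.126). For H471 against P28 it was again 0 of 9, where 6.72% of all genes were called, with LOC_Os04g56400 at -0.34 (limma adjusted p = 0.153). Without the control columns LOC_Os01g25484 was higher in P28 than in HHZ by 0.87 (limma adjusted p = 0.0244), against 0.45 ± 0.24 over all columns (limma adjusted p = 0.368). A p that misses the threshold in 9 columns does not show that the genotypes were alike.

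Within single conditions, H471 passed the size rule against HHZ under control conditions for 0 of 9 members (2.46% of all genes), and P28 for 1 (7.25%), LOC_Os03g18130, at 1.31. After 1 day H471 passed it for 0 members (3.41%) and P28 for 1 (6.76%), again LOC_Os03g18130, at -1.26. After 3 days H471 passed it for 1 (3.40%), LOC_Os03g18130, at -1.01, and P28 for 0 (6.24%), with that gene at -0.99. LOC_Os01g25484 was above HHZ under drought in both tolerant genotypes, by 0.54 in H471 and 0.95 in P28 after 1 day and by 0.48 in H471 and 0.79 in P28 after 3 days. LOC_Os08g36480 was likewise above HHZ, by 0.57 in H471 and 0.55 in P28 after 1 day and by 0.66 in H471 and 0.33 in P28 after 3 days. These are differences of 1 pooled column from another, with no error attached.

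**Figure D5:**
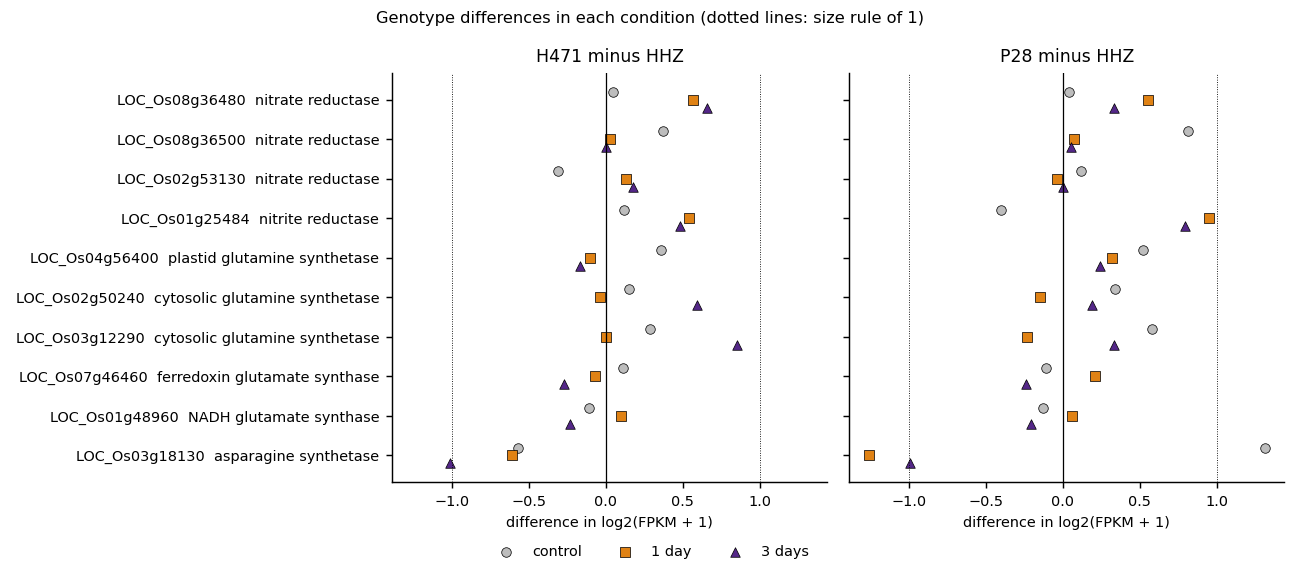
log2(FPKM + 1) differences of H471 and of P28 from HHZ for each member in each condition; each point is 1 pooled column against another, and dotted lines mark a difference of 1 in either direction. LOC_Os03g18130 lies at 1.31 under control conditions and -1.26 after 1 day for P28, and LOC_Os01g25484 lies at 0.95 after 1 day for P28.

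Going by locus number, 3 members lie between the outermost genes that the study lists for a donor segment of H471: LOC_Os02g50240 and LOC_Os02g53130 on chromosome 2 and LOC_Os07g46460 on chromosome 7. The segment limits rest on genes the study called, so the placing is approximate. LOC_Os02g50240 in H471 differed from HHZ by 0.15 under control conditions, -0.04 after 1 day and 0.59 after 3 days, and from P28 by -0.19, 0.11 and 0.39 at the same times. After 3 days it was thus highest in H471, above both parents. LOC_Os07g46460 in H471 differed from HHZ by 0.11, -0.07 and -0.27 at these times, and LOC_Os02g53130 stayed under 1 FPKM throughout. A second nitrite reductase in the chromosome 2 segment, LOC_Os02g52730, chosen after its values were seen, had FPKM of 0.399 in H471, 0.157 in P28 and 0.540 in HHZ under control conditions. After 1 day it was at 3.97 in H471, 8.29 in P28 and 9.22 in HHZ, and after 3 days at 0.820 in H471, 2.26 in P28 and 2.35 in HHZ. It passed the filter through drought columns alone, which fixed the direction of its calls: the difference was 2.52 after 1 day (limma adjusted p = 0.000128) and 1.00 after 3 days (limma adjusted p = 0.0104). Under drought H471 was the lowest genotype.

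Other genes of the route were taken from a list of loci and from words in the file's descriptions, 65 genes in all, of which 43 were tested. After 1 day 10 of them were called higher and 11 lower, and after 3 days 15 higher and 19 lower, where 27.4% of all genes were higher and 30.8% lower after 1 day, and 27.0% higher and 30.1% lower after 3 days. The counts of each class below are small and are to be read beside these shares, with no test of a class against them. For some genes the filter fixed the direction of the call: upwards for LOC_Os02g46460, LOC_Os02g38230 and LOC_Os02g52730, and downwards for LOC_Os10g17780. Their median difference was -0.02 after 1 day and -0.17 after 3 days, against -0.02 and -0.03 over all genes tested. Between H471 and HHZ 0 of the 43 passed limma's test, with 4 at an unadjusted p under 0.05. Between P28 and HHZ 2 were called, both higher in P28: LOC_Os06g38294 by 0.41 (limma adjusted p = 0.0422) and LOC_Os11g16290 by 0.51 (limma adjusted p = 0.0115). Between H471 and P28 LOC_Os11g16290 was called, at -0.53 (limma adjusted p = 0.0102).

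Ammonium transporters carry ammonium across the plasma membrane. After 3 days 0 of 9 tested were called higher and 7 lower (27.0% and 30.1% of all genes), and after 1 day 1 was higher and 4 were lower (27.4% and 30.8% of all genes). Those called neither higher nor lower after 1 day differed from control in both directions. LOC_Os04g43070, matching AMT1;1, was the 1 called higher after 1 day. It had 94.7 to 104 FPKM after 1 day and 6.13 to 6.37 after 3 days, against 7.43 to 15.3 in the controls. It rose by 3.06 on the log2 scale after 1 day and fell by 0.75 after 3 days, a course like that of the plastidic glutamine synthetase among the members. LOC_Os03g62200, matching AMT2, was at 11.4 to 31.3 FPKM after 1 day and 9.73 to 13.8 after 3 days, against 85.1 to 175 in the controls. It fell by 2.73 and by 3.33 at these times. LOC_Os05g39240, also matching AMT2, was at 14.5 to 17.4 FPKM after 1 day and 40.0 to 51.5 after 3 days, against 61.7 to 62.8 in the controls, and fell by 1.91 and by 0.44.

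Glutamate dehydrogenase can release ammonium from glutamate in mitochondria. Both tested genes fell at both times: LOC_Os03g58040 (matching GDH1) had 7.07 to 9.89 FPKM after 1 day and 7.56 to 9.37 after 3 days, against 33.1 to 35.6 in the controls. LOC_Os04g45970 (matching GDH2) had 8.11 to 9.25 FPKM after 1 day and 14.3 to 19.5 after 3 days, against 21.0 to 39.1 in the controls. The first fell by 1.85 and by 1.88 on the log2 scale, and the second by 1.53 and by 0.69. Regulators with an RWP-RK domain, the family that holds the nitrate-sensing NIN-like factors known from Arabidopsis, were called higher for 5 of 7 and lower for 0 after 1 day (27.4% and 30.8% of all genes), and higher for 4 and lower for 1 after 3 days (27.0% and 30.1%). LOC_Os01g13540 had 64.2 to 71.3 FPKM after 1 day and 24.4 to 43.7 after 3 days, against 16.9 to 20.5 in the controls, and rose by 1.79 and 0.86. LOC_Os03g03900 had 28.0 to 32.5 FPKM after 1 day and 21.5 to 24.2 after 3 days, against 10.1 to 10.6 in the controls, and rose by 1.42 and 1.06. LOC_Os11g16290 had 34.1 to 47.7 FPKM after 1 day and 33.9 to 55.8 after 3 days, against 26.8 to 38.1 in the controls, and rose by 0.29 and 0.39 although its ranges overlapped.

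Of 11 nitrate transporters tested, 1 was higher and 2 were lower after 1 day (27.4% and 30.8% of all genes). After 3 days 4 were higher and 5 lower (27.0% and 30.1%). The 1 higher after 1 day, LOC_Os02g46460, had 0.0988 to 0.136 FPKM in the controls. It and LOC_Os02g38230, at 0.340 to 0.440 FPKM in the controls, were among the 4 higher after 3 days. Both passed the filter through drought columns alone, which fixed the direction of these calls. LOC_Os08g05910, matching NRT1.1, had 37.6 to 47.2 FPKM after 1 day and 54.7 to 71.6 after 3 days, against 34.5 to 42.6 in the controls. It differed by 0.10 after 1 day, which did not pass the test, and rose by 0.67 after 3 days. LOC_Os06g38294, matching NRT1:2, had 12.3 to 14.3 FPKM after 1 day and 21.3 to 30.3 after 3 days, against 36.7 to 54.1 in the controls, and fell by 1.64 and by 0.80. Of 10 genes classed under the molybdenum cofactor or siroheme, 2 were higher and 2 lower after 1 day (27.4% and 30.8% of all genes). After 3 days 5 were higher and 2 lower (27.0% and 30.1%). The class includes LOC_Os06g45860, LOC_Os09g38772 and LOC_Os09g38777, annotated as molybdenum cofactor sulfurases rather than by nitrate reductase. Their differences after 3 days were -0.93, 2.04 and 1.17, all called. LOC_Os12g32230 (matching CNX2), at an early step of the molybdenum cofactor, had 13.0 to 15.9 FPKM after 1 day and 20.3 to 27.0 after 3 days, against 44.6 to 52.6 in the controls, and fell by 1.68 and by 1.08. The other gene matching CNX2, LOC_Os02g15870, named after its values were seen, had 13.1 to 15.5 FPKM after 1 day and 15.1 to 16.3 after 3 days, against 8.52 to 12.5 in the controls. It rose by 0.46 (limma adjusted p = 0.0263) and by 0.58 (limma adjusted p = 0.0109). LOC_Os02g04740, a further gene of that route, had 7.47 to 10.2 FPKM after 1 day and 21.7 to 39.1 after 3 days, against 15.9 to 20.4 in the controls, and fell by 0.99 after 1 day and rose by 0.65 after 3 days. LOC_Os09g38772, annotated as a molybdenum cofactor sulfurase, had 16.6 to 21.9 FPKM after 1 day and 38.4 to 77.1 after 3 days, against 12.4 to 15.1 in the controls. It differed by 0.48 after 1 day, which did not pass the test, and rose by 2.04 after 3 days. LOC_Os04g38700 (matching CNX3) had 21.3 to 25.1 FPKM after 3 days, against 16.2 to 16.9 in the controls, and rose by 0.45, with a difference of 0.17 after 1 day that did not pass. LOC_Os04g56620 (matching CNX1) had 32.7 to 37.3 FPKM in the controls and differed by -0.02 after 1 day and 0.14 after 3 days, neither of which passed.

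Likeness between members is given as a description over the 9 columns, with genotypes and conditions shared by all genes. Pearson's r of log2(FPKM + 1) was 0.95 between LOC_Os04g56400 and LOC_Os07g46460, 0.90 between LOC_Os08g36480 and LOC_Os01g25484, and 0.96 between LOC_Os01g48960 and LOC_Os03g18130. Nitrite reductase LOC_Os01g25484 followed the other plastidic members less closely, at 0.56 with LOC_Os04g56400 and 0.34 with LOC_Os07g46460. LOC_Os07g46460 ran opposite to LOC_Os03g18130, at -0.88, and to LOC_Os01g48960, at -0.84. With 3 conditions setting most of the variation, such values describe shared time courses.

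Among 10782 described genes that reached an FPKM of 10 in some column, the 2 whose profile was most like each member's were looked up over the same 9 columns. For nitrate reductase LOC_Os08g36480 they were LOC_Os08g32960, a DNAse I-like protein (r = 0.996), and LOC_Os03g51010, an alpha/beta-hydrolase (r = 0.994). For nitrite reductase LOC_Os01g25484 they were LOC_Os02g04710, matching the cycloartenol synthase CAS1 (r = 0.996), and LOC_Os04g41560, matching the B-box protein STO (r = 0.985). For the plastidic glutamine synthetase LOC_Os04g56400 they were LOC_Os01g09570, matching the phosphofructokinase PFK3 (r = 0.998), and LOC_Os08g25734, matching ADG1 of starch synthesis (r = 0.997). For the ferredoxin-dependent glutamate synthase LOC_Os07g46460 they were LOC_Os07g37030, matching the photosynthetic electron transport protein PETC (r = 0.996), and LOC_Os04g53490, matching the chloroplastic lipocalin CHL (r = 0.996). For LOC_Os02g50240 they were LOC_Os05g39930, with an ARM repeat (r = 0.960), and LOC_Os05g38350, matching GPAT5 (r = 0.959). For LOC_Os03g12290 they were LOC_Os03g63740, matching the ribonuclease III family gene NFD2 (r = 0.969), and LOC_Os05g02890, an ABC-2 type transporter (r = 0.945). For LOC_Os01g48960 they were LOC_Os10g42950, matching a cyclin-dependent kinase (r = 0.994), and LOC_Os06g36360, matching a nuclear poly(A) polymerase (r = 0.993). For asparagine synthetase LOC_Os03g18130 they were LOC_Os11g16330, matching SKIP16 (r = 0.986), and LOC_Os01g72340, a glycoside hydrolase (r = 0.984).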

How the data were processed

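Leaf RNA of 18 libraries, 2 for each of 3 genotypes in 3 conditions, was measured by RNA sequencing. Per the authors, adaptor and low-quality sequence was removed, TopHat mapped the read pairs to the rice genome of the MSU project, and Cufflinks gave the deposited FPKM, a single pooled value for both libraries of a genotype and condition. Versions of both were not given in the sources used here, and since this table holds no read counts, depth per value is unknown and no counting interval is given. Columns were matched by their headers to the labels, and 0 were left unmapped.

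From these values log2(FPKM + 1) was taken for the 20568 genes that reached an FPKM of 1 in some column. limma 3.58.1 (R 4.3.3, with trend) was fitted to all 9 columns with genotype and condition as terms. It was two-sided, at a Benjamini-Hochberg adjusted p of 0.05 over all genes tested. The code was also run on simulated data with independent noise, few changed genes and no genotype effect. That setting differs from these data, so the run does not show how the fit behaves on them. Single columns were compared by size, a gene passing at 1 or more on the log2 scale in either direction. Figures were drawn with Python 3.11.15 and matplotlib 3.10.9.

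The members and lists were chosen with earlier results of these data known. All members are named, with pathway genes of at least 20 FPKM in some column, any pathway gene called between H471 and HHZ, and the 2 genes most like each member with an FPKM of at least 5. From the word search 14 genes were left out whose description held the words inside another protein's name. Alternatives were another pseudocount, filter, scaling, threshold, set of columns and list, and leaving out each genotype or condition.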

Additional observations from a re-analysis of the deposited data

Results flagged for a closer look

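Asparagine synthetase LOC_Os03g18130 was singled out because the genotypes took opposite directions. After 1 day of drought against control the log2(FPKM + 1) difference was 1.09 in H471, -1.44 in P28 and 1.13 in HHZ. P28 against HHZ was 1.31 under control conditions and -1.26 after 1 day. Each value compares 1 pooled column with another, and the difference between genotypes was not tested.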

How the results depend on the processing

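No paired analysis was possible because each column pools the 2 libraries and carries no replicate number. Of 297 alternative values of single members, 284 kept their direction and their side of the threshold, 7 lost the call, 2 gained one and 4 reversed. The reversals were LOC_Os03g18130 after 1 day (-0.16 without H471, -0.17 without HHZ, 1.11 without P28) and LOC_Os01g25484 in H471 against P28 (0.10 without 1 day, 0.05 without 3 days, -0.36 without control, -0.07 with all). With a filter of 5 FPKM, 0 members were called lower after 1 day, since LOC_Os08g36500 was no longer tested. Leaving out a condition gave 0 to 1 members higher in P28 than in HHZ. With the listed loci alone, pathway genes called were 5 higher and 5 lower after 1 day, 7 and 9 after 3 days, and 6 and 9 at 3 days against 1 day. The whole pathway list had 12 higher and 16 lower at 3 days against 1 day, and leaving out a genotype gave 9 to 12 lower, with 9 without P28 and 10 without HHZ.

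Counts by size, over all 10 members, moved most with the threshold. At 0.5 they were, against control, 7 in H471 and 7 in HHZ after 1 day, and 8 and 6 after 3 days. Against HHZ they were 1 for H471 and 4 for P28 in the controls, 3 and 3 after 1 day, and 4 and 2 after 3 days. At 1.5 they were 3 after 1 day and 2 after 3 days in P28 and 1 after 3 days in HHZ, and against HHZ 0 for P28 in the controls and after 1 day and 0 for H471 after 3 days. A pseudocount of 0.1 gave 5 in HHZ after 3 days, and against HHZ 1 for H471 and 2 for P28 in the controls and 3 for H471 after 3 days. Median-ratio scaling gave 0 for H471 against HHZ after 3 days. Pooled columns limit every comparison: no spread between plants can be had.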
